A study of Mus musculus with 11 samples.

Results

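Wnt proteins, the receptors and co-receptors that bind them, the R-spondins that strengthen their signal and the secreted proteins that block it were followed in marrow stromal cells of mice treated with the chemotherapy drug doxorubicin, which causes DNA breaks through topoisomerase II. The members were taken by gene symbol: every numbered Wnt, Fzd, Sfrp1 to Sfrp5, Dkk1 to Dkk4, Rspo1 to Rspo4 and Lgr4 to Lgr6 gene of the count table, with Lrp5, Lrp6, Frzb, Wif1, Sostdc1, Axin2, Lef1 and Tcf7. This gave 47 of 24718 genes, of which 36 had enough reads to be tested and 11 had not. The cells were sorted by tdTomato from the flushed and digested bone marrow of female mice of the genotype Lepr-Cre;LSL-tdTomato+/-, in which cells that express the leptin receptor, or descend from such cells, carry the red reporter. Controls received 4 intravenous injections of phosphate-buffered saline (PBS, 4 libraries, age of the mice not stated in the labels). The DOX1X group received 1 intravenous injection of doxorubicin at 10 mg/kg as young adults (3 libraries). The DOX4X group received 4 intravenous injections at 5 mg/kg, spaced 1 week apart, from 8 to 10 weeks of age (4 libraries). All mice were killed 8 weeks after treatment, so that DOX1X and PBS mice differed in the number of injections as well as in the drug, and the 2 doxorubicin groups differed in both dose and schedule. The labels call the libraries of a group biological replicates.

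The sort was checked against its markers. Cxcl12, the chemokine that marks these stromal cells, lay between 46059 and 59804 CPM (a count divided by the scaled library size) in the 11 libraries, and Lepr between 3939 and 7661 CPM, while the pan-leukocyte gene Ptprc was present at 11.6 to 33.6 CPM. Total counts were 29540422 to 42784036 in PBS, 33496356 to 42002065 in DOX1X and 31129352 to 36888310 in DOX4X. The column headers place PBS 1 to 4, DOX1X 1 and DOX1X 2 on flow cell 1. DOX1X 3 and all DOX4X libraries are on flow cell 2, so PBS and DOX4X shared no flow cell. Only DOX1X spans both flow cells, so a flow cell term in a fit rests on DOX1X 3 against DOX1X 1 and DOX1X 2. Any deviation of DOX1X 3 therefore enters every DOX4X difference fitted with that term. The title of PBS 4 begins with DOX, whereas its treatment label and its library name place it with the controls, where it was kept. In such bulk samples, fewer cells of a type and less RNA per cell cannot be told apart.

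Secreted Wnt proteins bind a Frizzled receptor together with LRP5 or LRP6, which stops the destruction of beta-catenin and lets it act with the transcription factors TCF and LEF on target genes. R-spondins bind LGR4, LGR5 or LGR6 and protect Frizzled and LRP receptors from removal. SFRP proteins, FRZB and WIF1 bind Wnt proteins outside the cell, whereas DKK1 and SOSTDC1 bind the LRP co-receptors. In bone, Wnt signalling through beta-catenin is known for promoting the osteoblast fate, and WNT5A and WNT5B mostly act through branches that do not need beta-catenin.

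Because TCF and LEF act on their targets through a short DNA motif, the 250 bases upstream of the RefSeq transcription starts (GRCm38.p6) were searched for its core, CTTTGAT, and for its reverse complement ATCAAAG, so that both strands were covered. The starts of 29 members, 36 in all, were searched, and the other members were not. The motif was found at 2 of these 36 starts (5.56%), against 1053 of the 32851 starts available for search (3.21%). That background did not hold every gene. It also kept a chromosome whose member starts were left out of the search. Both belong to Wnt ligands, Wnt5b and Wnt11. They are shown because they were the only ones of the 29 members searched to hold the motif, although neither passed the test against PBS. The Wnt5b window is chr6:119449387-119449636 on the minus strand. It precedes the innermost of its 3 RefSeq starts and lies in an intron of the longer transcripts, and the windows of the other starts did not hold the motif. The Wnt11 window is chr7:98834862-98835111 on the plus strand, upstream of the gene and outside the exons annotated in GENCODE M21, and it precedes 1 of 2 starts. Capitals mark the motif, which begins 71 bases before the Wnt5b start and, as the reverse complement, 51 bases before the Wnt11 start.
Wnt5b: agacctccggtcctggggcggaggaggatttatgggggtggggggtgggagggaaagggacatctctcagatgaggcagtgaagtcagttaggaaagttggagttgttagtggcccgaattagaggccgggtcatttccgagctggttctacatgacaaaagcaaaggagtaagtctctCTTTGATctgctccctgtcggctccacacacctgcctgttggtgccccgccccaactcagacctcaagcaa
Wnt11: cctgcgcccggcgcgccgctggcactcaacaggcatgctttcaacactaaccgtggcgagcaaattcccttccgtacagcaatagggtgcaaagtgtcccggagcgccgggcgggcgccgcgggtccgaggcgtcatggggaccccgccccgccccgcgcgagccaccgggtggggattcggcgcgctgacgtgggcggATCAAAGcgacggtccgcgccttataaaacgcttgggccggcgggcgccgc
A match of these letters is a description of the window and not a measured binding site.

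Levels of different genes were compared as CPM per kilobase of exon. In PBS, the secreted inhibitors made up 67.2% ± 1.72 (SD, n = 4) of the members' summed level per kilobase, the Frizzled receptors 13.2% ± 1.2, the R-spondins 13.1% ± 1.87 and the Wnt ligands themselves 3.72% ± 0.369. Sfrp4, a Wnt-binding inhibitor, had the highest level at 232 ± 27.1 CPM per kilobase, followed by Wif1 at 208 ± 79.0. The ranges of Sfrp4 and Wif1 over the 4 libraries overlapped, and the lowest Wif1 value, 136, was above the highest of Sfrp1, 109.6. Sfrp1 (80.7 ± 19.8), Rspo2 (72.1 ± 7.66), Dkk3 (65.0 ± 16.2), Fzd1 (58.0 ± 14.9), Rspo3 (47.7 ± 5.85) and Sfrp2 (34.7 ± 6.56) came next, and each neighbouring pair in this order overlapped. Fzd4 (19.4 ± 2.94), whose highest library was below the lowest of Sfrp2, led a group of receptors with Fzd7 (15.2 ± 3.01) and Fzd8 (12.9 ± 1.76).

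Among the 15 Wnt ligands, Wnt4 at 12.0 ± 2.32 CPM per kilobase and Wnt5b at 11.5 ± 1.31 were the most abundant in PBS and did not differ beyond their spread. Wnt5a followed at 4.38 ± 0.430 and Wnt11 at 3.78. Of the ligands, 8 stayed under 1 CPM in every library of the study. The co-receptor Lrp6 stood at 7.21 ± 0.620 CPM per kilobase against 1.11 for Lrp5, and the R-spondin receptor Lgr4 at 9.68 ± 1.77 against 0.991 for Lgr5 and 0.162 for Lgr6. Of the readouts of beta-catenin signalling, Tcf7 reached 7.21 ± 1.56, Lef1 0.438 and Axin2, a feedback inhibitor that is itself a target, 0.163 CPM per kilobase.

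**Figure D1:**
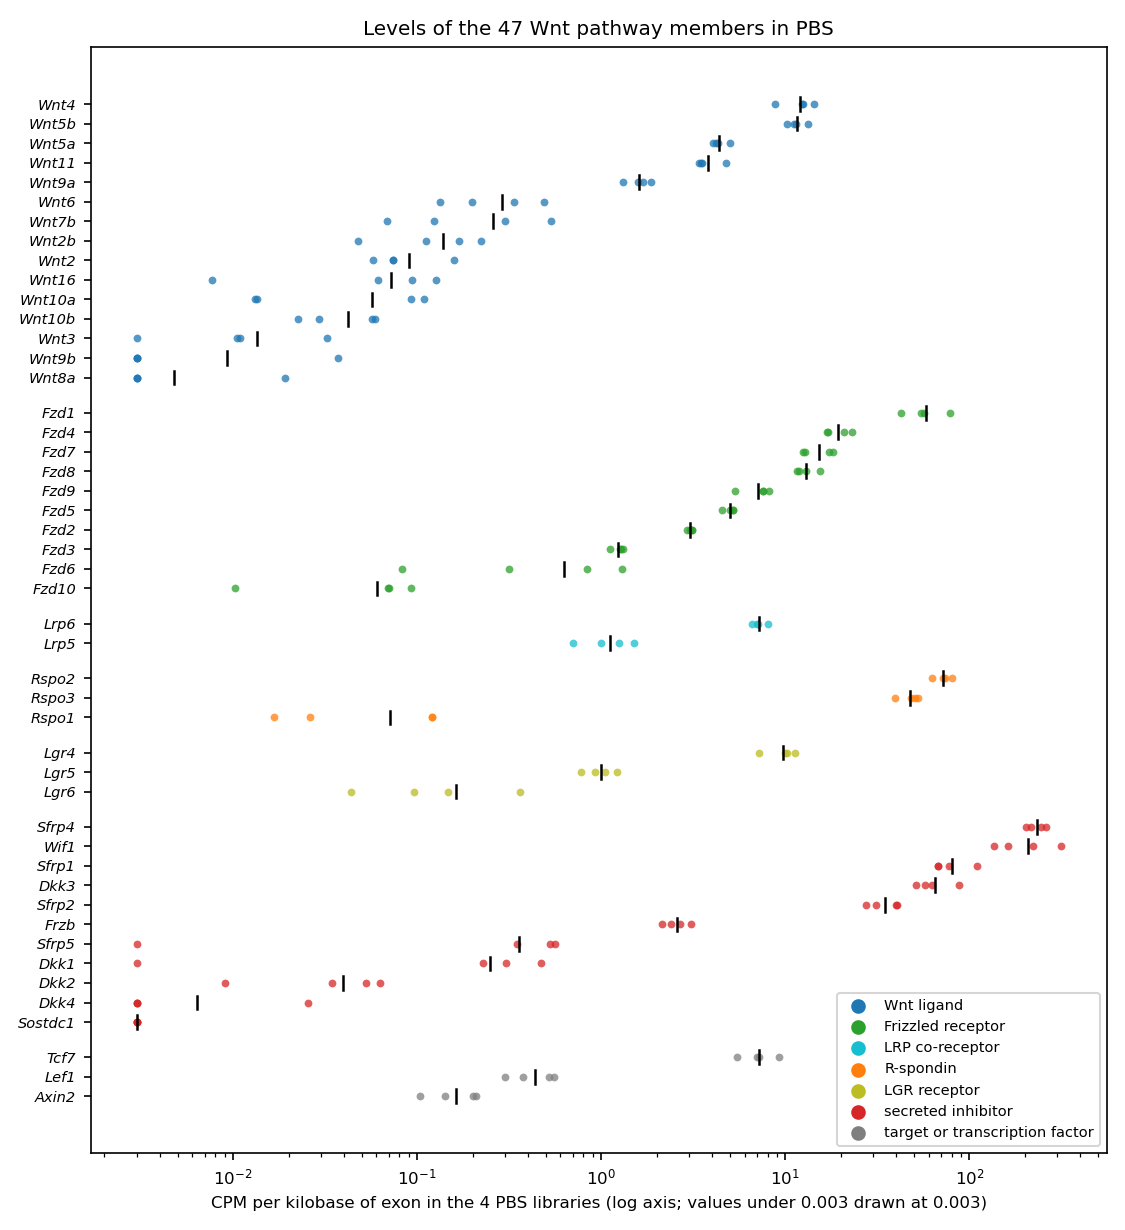
Level of each of the 47 members in the 4 PBS libraries, in CPM per kilobase of exon on a log axis; points are libraries, short black lines are means and colours are roles, and values under 0.003 are drawn at 0.003. The secreted inhibitors Sfrp4 and Wif1 lie furthest to the right, while most Wnt ligands lie below 1.

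The 11 members not tested were Dkk2, Dkk4, Fzd10, Rspo1, Sostdc1, Wnt2, Wnt3, Wnt8a, Wnt9b, Wnt10a and Wnt10b, with 0 to 21 counts in a library. Dkk2, a Dickkopf inhibitor of LRP co-receptors, lay between 0.0334 and 0.234 CPM in PBS, between 0.122 and 0.364 in DOX1X and between 0.205 and 0.358 in DOX4X. Wnt10b, a ligand known for promoting osteoblast formation, had 3, 6, 6 and 3 counts in PBS, 10, 7 and 6 in DOX1X and 1, 0, 2 and 1 in DOX4X. Its DOX4X libraries were all below those of the other groups, at counts too low to be tested. Sostdc1, a co-receptor inhibitor, had 0 counts in all PBS libraries, 2 in DOX1X 3, and 6 and 3 in DOX4X 3 and DOX4X 4.

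The share of the secreted inhibitors was 65.5% ± 1.18 (SD, n = 3) in DOX1X and 63.2% ± 2.30 (n = 4) in DOX4X. It ranged from 65.15% to 68.77% in PBS and from 60.18% to 65.73% in DOX4X, so that the groups overlapped. The share of the Frizzled receptors was 14% ± 1.30 in DOX1X and 16.2% ± 0.819 in DOX4X. Its DOX4X range, 15.06% to 16.9%, lay above the PBS range of 11.58% to 14.5%, and DOX1X spanned 12.55% to 15.11%. The summed Frizzled level itself overlapped, at 103 to 153 CPM per kilobase in PBS and 134 to 146 in DOX4X, while the summed inhibitors were at 556 to 725 and 537 to 559. The Wnt ligands took 3.32% ± 0.180 in DOX1X and 3.52% ± 0.251 in DOX4X, and the R-spondins 14.4% ± 2.51 and 14.3% ± 3.08. No test was made on these shares.

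**Figure D2:**
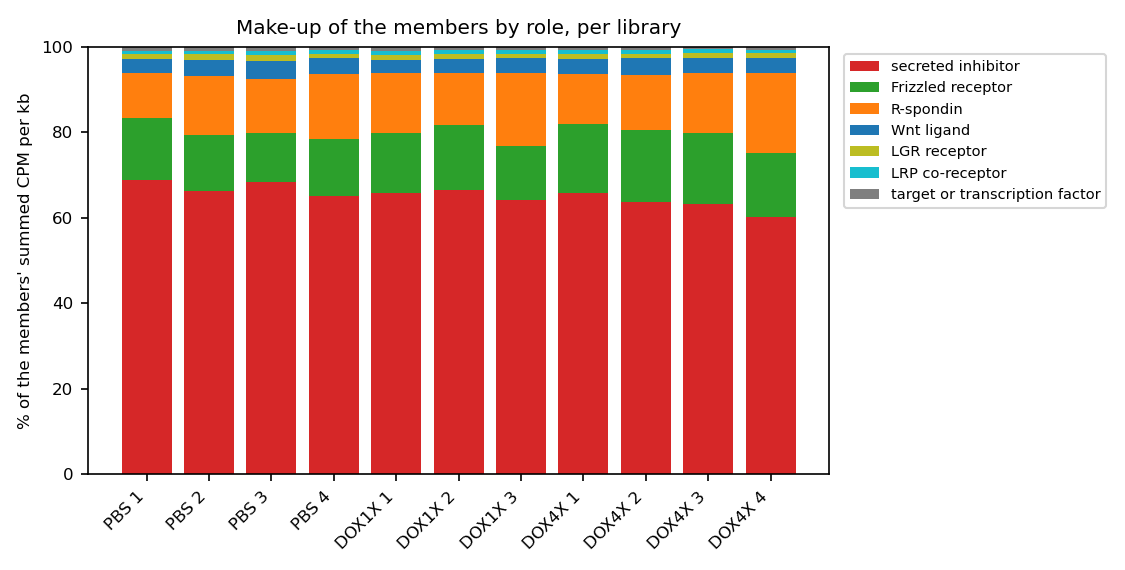
Share of each role in the members' summed CPM per kilobase, in percent, as 1 stacked bar for each of the 11 libraries. Inhibitors take 60.18% or more in every library, and the Frizzled part is larger in the DOX4X bars than in the PBS bars.

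The comparison of DOX4X with PBS asks what remained different 8 weeks after repeated dosing. In edgeR at an unadjusted p under 0.05, Dkk3, Frzb, Fzd3, Lrp6, Sfrp4, Sfrp5, Tcf7, Wnt5b and Wnt7b were lower in DOX4X. Fzd5 and Wnt11 were higher at that p. No member passed an adjusted p of 0.05 in edgeR's quasi-likelihood test, adjusted over all 17838 genes. Of all genes, 26 passed (0.146%). At an unadjusted p under 0.05, 9 of the 36 tested members were lower (25.0%), against 7.85% of all genes, and 2 were higher (5.56%), against 6% of all genes. The values of 4 members (11.1%) did not overlap and were lower in DOX4X, Fzd2, Fzd3, Wnt5b and Wnt7b, against 4.68% of all genes. Only Fzd5 was higher without overlap (2.78%, against 3.17% of all genes). In sign, 22 of 36 members were lower (61.1%, against 47.8% of all genes). The median log2 fold change over the tested members was -0.09, against 0.01 over all genes. With the flow cell as a term, 3 members were lower and 5 higher at an unadjusted p under 0.05, and the median was -0.03. Lower values then no longer outnumbered higher ones at that p, but the term rests on DOX1X 3 against the other DOX1X libraries. The term cannot separate a flow cell effect from a deviation of that library. DESeq2 called 2 members, Wnt5b and Fzd3, and limma-voom called none.

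DOX1X and PBS were compared for the effect of a single dose, with the same PBS libraries as above. No member and only 1 gene of the table (0.00561%) passed in edgeR's test, and DESeq2 called 1 member, Wnt5b. At an unadjusted p under 0.05, Wnt5b, Wnt7b and Wnt16 were lower, 3 members or 8.33% against 3.74% of all genes. Fzd5 and Sfrp2 were higher, 5.56% of members against 3.42% of all genes. Wnt5b, Wnt7b and Frzb lay below PBS without overlap (8.33%, against 3.82% of all genes), and Fzd5 and Sfrp2 above it (5.56%, against 3.18%). In sign, 23 of 36 members were lower (63.9%, against 48.8% of all genes). The median log2 fold change over the tested members was -0.14, against 0.01 over all genes. The median was -0.07 both with the flow cell as a term and within flow cell 1, and -0.05 without DOX1X 3.

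DOX4X against DOX1X addresses the 2 schedules directly, and no member passed in edgeR's test or in DESeq2. Of all genes, 1 passed in edgeR (0.00561%). At an unadjusted p under 0.05, Fzd4 and Fzd6 were higher in DOX4X (5.56% of members, against 2.23% of all genes) and no member was lower (against 2.13%). The values of Fzd4 and Fzd6 also did not overlap between the groups (against 3.19% of all genes). Lrp5 was lower in DOX4X without overlap (2.78% of members, against 2.79% of all genes). The members' median log2 fold change was -0.05 against -0.0011 over all genes, and it turned to 0.08 both with the flow cell as a term and within flow cell 2. Both of these settings compare DOX4X with DOX1X 3 alone, so they are not separate checks. With the replicate number as a block, fitted over all groups, 2 genes and no member passed in edgeR. The labels do not say that a number marks a shared litter or day.

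**Figure D3:**
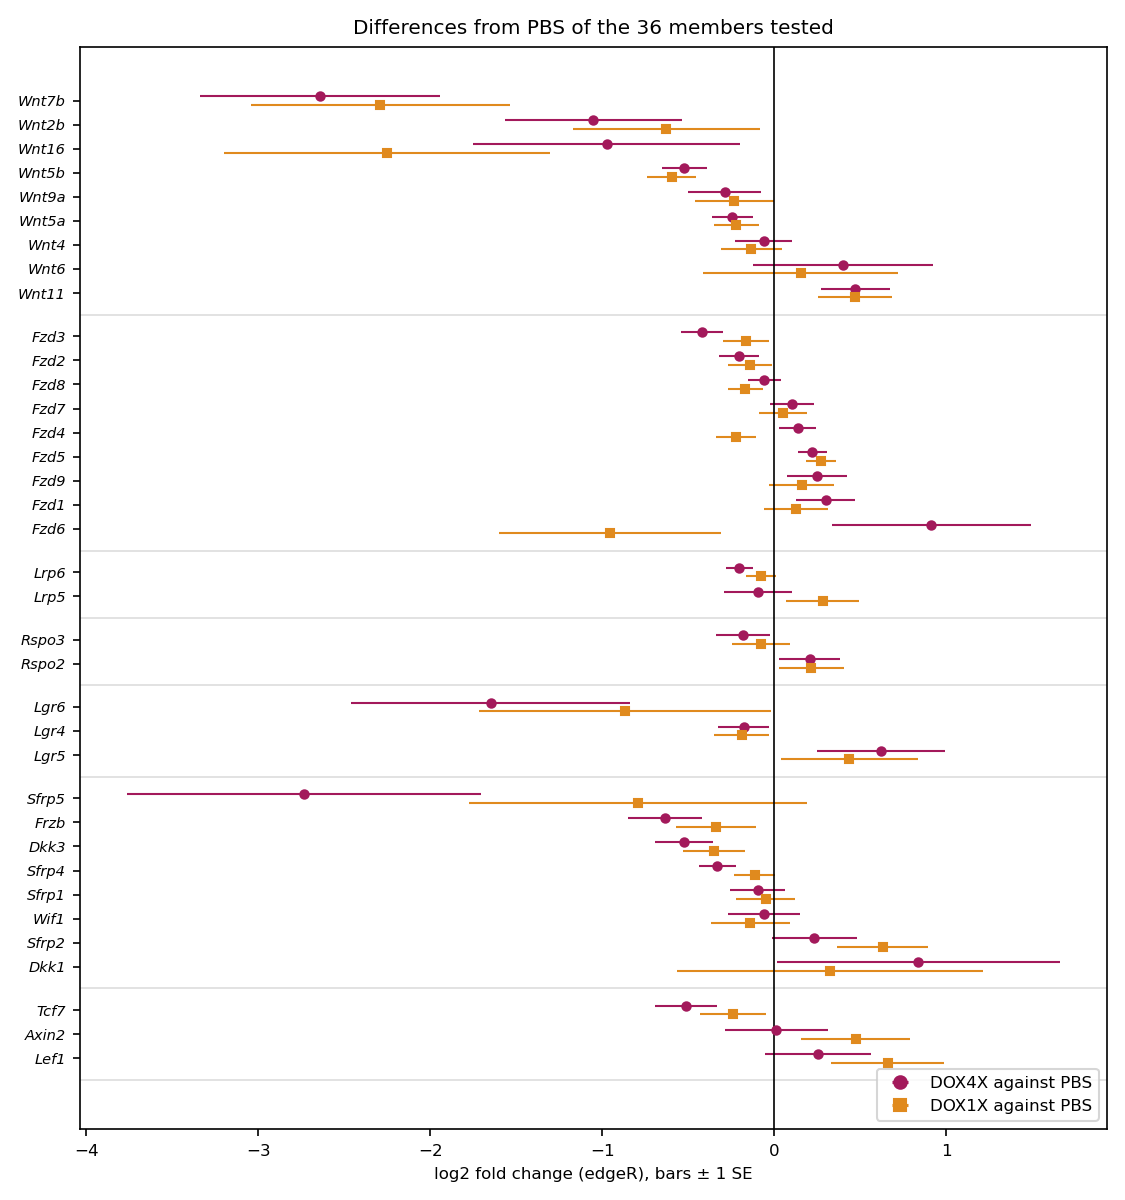
Log2 fold change of each tested member against PBS, from edgeR, with bars of 1 SE, for DOX4X (circles) and DOX1X (squares), grouped by role. Wnt5b and Wnt7b lie to the left of 0 in both, Fzd5 and Wnt11 to the right in both, and the bars of Fzd6 lie on opposite sides; both comparisons use the same PBS libraries.

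The ligand Wnt5b had the smallest p of all members in both comparisons with PBS. Its level was 35.4, 29.7, 30.2 and 27.1 CPM in PBS, 19.7, 21.9 and 19.2 in DOX1X, and 23.3, 24.3, 16.1 and 21.7 in DOX4X. Every treated library was below every PBS library, and the 2 treated groups overlapped. The log2 fold change was -0.52 (SE 0.131, edgeR adjusted p = 0.139) for DOX4X and -0.59 (SE 0.143, edgeR adjusted p = 0.515) for DOX1X. DESeq2 gave adjusted p-values of 0.0134 and 0.0495. Within flow cell 1, where PBS and 2 DOX1X libraries can be compared directly, the DOX1X difference was -0.56 (edgeR adjusted p = 0.358). With the flow cell as a term, the DOX4X difference was -0.41 (SE 0.267).

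Wnt7b, a ligand known for promoting bone formation, was a low-count gene. It had 58, 18, 81 and 10 counts in PBS, 5, 11 and 12 in DOX1X and 2, 10, 4 and 12 in DOX4X, or 1.47, 0.601, 2.62 and 0.334 CPM in PBS against at most 0.334 in DOX1X and 0.327 in DOX4X. After scaling for depth every treated library lay below every PBS library, but PBS 4 and DOX1X 2 were set apart by less than a count, and the PBS libraries themselves spread widely. The log2 fold change was -2.64 (SE 0.697, edgeR adjusted p = 0.152) for DOX4X and -2.29 (SE 0.753, adjusted p = 0.596) for DOX1X. Without PBS 3 the DOX4X difference was -2.01.

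The other ligands gave smaller or less certain differences. Wnt11, a ligand of the branches without beta-catenin, measured 14, 19.7, 14.5 and 14.4 CPM in PBS, 26.8, 22.3 and 15.8 in DOX1X, and 16.0, 19.6, 23.1 and 28.2 in DOX4X. Its groups overlapped through PBS 2, and the log2 fold change was 0.47 in both comparisons (SE 0.201 for DOX4X with an edgeR adjusted p of 0.330, SE 0.215 for DOX1X). Wnt5a measured 31.5 to 39.1 CPM in PBS, 25.5 to 35.5 in DOX1X and 25.8 to 32.9 in DOX4X, a log2 fold change of -0.24 (SE 0.119) for DOX4X. Wnt4, a ligand expressed at a like level to Wnt5b, differed by -0.06 (SE 0.164) in DOX4X and -0.13 (SE 0.178) in DOX1X. A flow cell term made these -0.64 (SE 0.268) and -0.35 (SE 0.169), and the Wnt5a difference in DOX4X -0.08. Wnt16, known for protecting cortical bone, measured 0.0334 to 0.550 CPM in PBS, 0.0263 to 0.121 in DOX1X and 0.0275 to 0.331 in DOX4X. Its log2 fold change in DOX1X was -2.25 (SE 0.949, edgeR adjusted p = 0.659), and the groups overlapped. Over the 9 tested ligands the median log2 fold change was -0.29 in DOX4X and -0.23 in DOX1X, with 7 of 9 lower in each.

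Among the Frizzled receptors, 6 of 9 tested genes were higher in DOX4X than in PBS, with a median log2 fold change of 0.14, and 4 of 9 were higher in DOX1X. Fzd5 measured 36.1, 35.9, 34.8 and 31.2 CPM in PBS, 46.2, 40.5 and 38.3 in DOX1X, and 38.4, 38.5, 40.5 and 43.6 in DOX4X. All 7 treated libraries exceeded all PBS libraries, by 0.22 in log2 in DOX4X (SE 0.0828, edgeR adjusted p = 0.269) and by 0.27 in DOX1X (SE 0.0890, adjusted p = 0.596). The DOX1X difference was 0.33 within flow cell 1.

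Fzd3, a receptor known for planar polarity, measured 16.8, 16.4, 16.1 and 14.2 CPM in PBS, 16.2, 14.4 and 11.9 in DOX1X, and 13.7, 11.1, 12.0 and 10.8 in DOX4X. The DOX4X libraries were all below PBS, by -0.42 in log2 (SE 0.123, edgeR adjusted p = 0.186, DESeq2 adjusted p = 0.0406). DOX1X 3, on the same flow cell as the DOX4X libraries, lay among them, while DOX1X 1 and DOX1X 2 lay among PBS. With the flow cell as a term the difference was -0.05, so that drug schedule and flow cell cannot be told apart for Fzd3. Fzd2, the remaining receptor without overlap, measured 10.7 to 11.4 CPM in PBS and 8.81 to 10.2 in DOX4X, a log2 fold change of -0.20 (SE 0.118).

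Fzd4 and Fzd6 differed between the schedules. Fzd4, the receptor for norrin in blood vessels, measured 118, 108 and 109.9 CPM in DOX1X and 125, 148, 152 and 149.6 in DOX4X, with 154, 140.0, 113 and 115 in PBS. Its log2 fold change between the schedules was 0.36 (SE 0.115, edgeR adjusted p = 0.886). Fzd6, another polarity receptor, measured 1.39, 1.85 and 1.47 CPM in DOX1X and 4.74, 8.49, 5.44 and 4.28 in DOX4X, with 4.03, 6.21, 1.52 and 0.400 in PBS. Its log2 fold change between the schedules was 1.87 (SE 0.662, edgeR adjusted p = 0.924). Within flow cell 2, where the DOX4X libraries stand against DOX1X 3 alone, the differences were 0.39 and 1.96. For both genes the PBS libraries overlapped each of the treated groups.

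Endothelial markers also differed between the schedules. The summed level of 20 endothelial genes was 221 to 892 CPM in PBS, 310.1 to 549 in DOX1X and 779 to 1400 in DOX4X. Of these genes, 20 of 20 were higher in sign in DOX4X than in PBS, 19 of 20 were lower in DOX1X than in PBS, and 19 of 20 were higher in DOX4X than in DOX1X. None of them was at 0 throughout a group. Over all genes, 47.8% were lower in sign in DOX4X than in PBS, 48.8% in DOX1X than in PBS and 50.3% in DOX4X than in DOX1X. PBS and DOX4X shared no flow cell. Mural cell markers moved likewise between the schedules: 11 of 12 were higher in sign in DOX4X than in DOX1X and 12 of 12 lower in DOX1X than in PBS, with overlapping sums of 707 to 1993 CPM in PBS, 621 to 1034 in DOX1X and 787 to 1727 in DOX4X. The PBS library with the lowest endothelial sum, PBS 4, also had the lowest Fzd6, and DOX4X 2 had the highest of both. The extremes of Fzd4 lay in other libraries, the lowest in DOX1X 2 at 108 CPM and the highest in PBS 1 at 154 CPM. Within PBS, Fzd4 was 154 and 140 CPM in PBS 1 and PBS 2, where the endothelial sum was 750 and 892 CPM. It was 113 and 115 CPM in PBS 3 and PBS 4, where the sum was 484 and 221 CPM. The part of endothelial or mural RNA in the Fzd4 and Fzd6 differences was not tested.

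**Figure D4:**
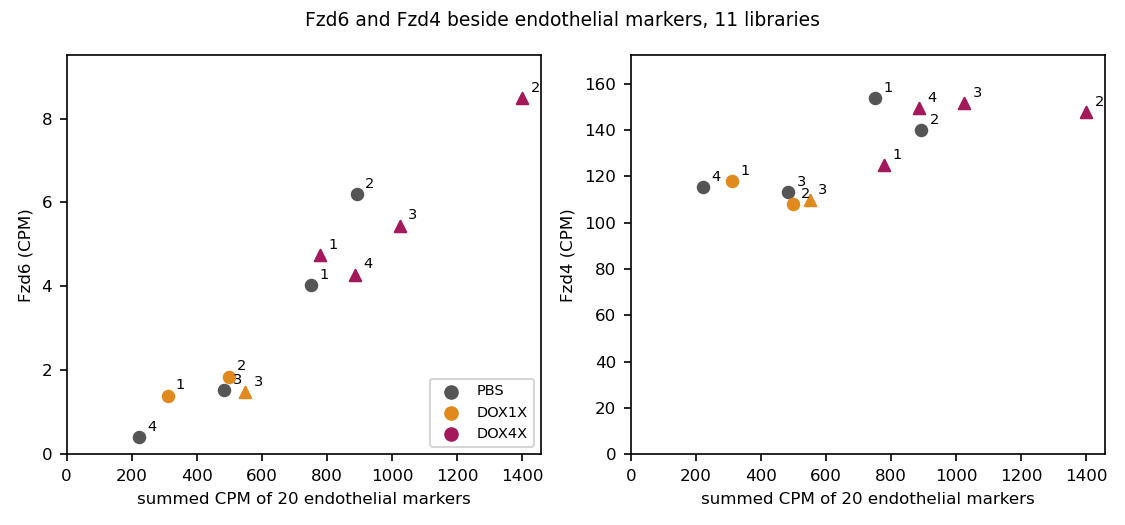
Level of Fzd6 (left) and Fzd4 (right) in CPM against the summed CPM of 20 endothelial markers, for 11 libraries numbered within their group, with circles for flow cell 1 and triangles for flow cell 2. PBS 4 is lowest and DOX4X 2 highest in both the endothelial sum and Fzd6, at 0.400 and 8.49 CPM of Fzd6. Fzd4 is lowest in DOX1X 2 and highest in PBS 1, and within PBS both Fzd4 and the endothelial sum are higher in PBS 1 and PBS 2 than in PBS 3 and PBS 4.

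The other Frizzled genes and the co-receptors followed. Fzd1, the most abundant Frizzled, measured 178 to 329 CPM in PBS and 273 to 318 in DOX4X, a log2 fold change of 0.30 (SE 0.173) that was 0.82 (SE 0.318) with the flow cell as a term. Fzd7 differed by 0.10 (SE 0.129, and 0.25 with that term) and Fzd8 by -0.06 (SE 0.0952) in DOX4X. Lrp6 measured 97.5, 96.3, 110.3 and 90.1 CPM in PBS and 92.4, 87.9, 84.3 and 78.1 in DOX4X, overlapping through PBS 4 and DOX4X 1, which is -0.20 in log2 (SE 0.0794, edgeR adjusted p = 0.297). Lrp5 measured 12.7, 12.5 and 14.4 CPM in DOX1X and 10.7, 11.6, 9.33 and 9.02 in DOX4X. The schedules did not overlap for Lrp5, with a log2 fold change of -0.38 (SE 0.212), whereas PBS spanned both, at 6.87 to 14.6 CPM.

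The R-spondins and their receptors showed no member at an unadjusted p under 0.05 in any comparison fitted on group means alone. Rspo2 measured 375, 367, 318 and 414 CPM in PBS, 445, 368 and 471 in DOX1X, and 322, 365, 399.9 and 615 in DOX4X. Its log2 fold change was 0.21 (SE 0.177) in DOX4X and 0.22 (SE 0.190) in DOX1X, within the spread of PBS except for DOX4X 4 and the higher DOX1X libraries. Without DOX4X 4 the Rspo2 difference in DOX4X was -0.02. Rspo3 differed by -0.18 (SE 0.158) and -0.08 (SE 0.170), and by -0.70 (SE 0.266) and -0.27 (SE 0.167) with the flow cell as a term. Lgr4 differed by -0.18 (SE 0.147) and -0.19 (SE 0.159), and the flow cell term turned the DOX4X value to 0.33 (SE 0.253). Lgr6, at most 2.49 CPM, differed by -1.65 (SE 0.809) and -0.87 (SE 0.849). Without PBS 3, its highest library, these were -0.89 and -0.10, and the DOX4X value was -2.76 without DOX4X 2. Lgr5, known as a stem cell marker in epithelia, measured 7.99 to 12.5 CPM in PBS, 9.69 to 17.6 in DOX1X, and 9.22, 10.4, 10.8 and 32.1 in DOX4X. The log2 fold change of Lgr5 in DOX4X was 0.62 (SE 0.371) with DOX4X 4 and -0.0035 without it.

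Of the 8 tested inhibitors, 6 were lower in each treated group than in PBS, with a median log2 fold change of -0.21 in DOX4X and -0.12 in DOX1X. Dkk3, a Dickkopf relative whose action on Wnt signalling varies with context, measured 172, 194, 296 and 212 CPM in PBS, 165, 153 and 197 in DOX1X, and 132, 165, 129 and 180.2 in DOX4X. The groups overlapped, and the log2 fold change was -0.53 (SE 0.168, edgeR adjusted p = 0.215) in DOX4X and -0.34 without PBS 3, the highest library. It was -0.83 with the flow cell as a term.

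Sfrp4, the most abundant member, measured 905, 846, 1094 and 1029 CPM in PBS, 928, 972 and 789 in DOX1X, and 889.6, 693, 750.2 and 750.5 in DOX4X. All DOX4X libraries but DOX4X 1 were below all PBS libraries. The log2 fold change was -0.33 (SE 0.11, edgeR adjusted p = 0.234), and -0.06 with the flow cell as a term. Frzb, a close relative of the SFRP proteins, measured 6.93, 7.78, 9.90 and 8.71 CPM in PBS, 6.78, 6.88 and 6.12 in DOX1X, and 4.79, 4.24, 4.30 and 8.09 in DOX4X. Its log2 fold change was -0.63 (SE 0.216, edgeR adjusted p = 0.238) in DOX4X and -0.34 (SE 0.233) in DOX1X.

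Sfrp2 was the only inhibitor at an unadjusted p under 0.05 in DOX1X. It measured 66.7, 87.5, 58.7 and 85.5 CPM in PBS, 102, 102 and 143 in DOX1X, and 54.3, 77.8, 80.2 and 138 in DOX4X. DOX1X did not overlap PBS, and the difference was 0.63 in log2 (SE 0.264, edgeR adjusted p = 0.658) and 0.45 within flow cell 1. DOX4X overlapped both groups. Sfrp5 had 26, 0, 31 and 32 counts in PBS and 6, 7, 0 and 1 in DOX4X, a log2 difference of -2.73 (SE 1.03, edgeR adjusted p = 0.274) that was -0.77 with the flow cell as a term. Wif1 differed by -0.06 (SE 0.212), Sfrp1 by -0.10 (SE 0.161) and Dkk1, at most 2.6 CPM, by 0.84 (SE 0.825) in DOX4X. Without DOX4X 2, its highest library, the Dkk1 difference was -0.0058. With the flow cell as a term, Wif1 and Sfrp1 turned to 0.10 and 0.24, Sfrp2 in DOX4X turned from 0.23 to -0.25, and Dkk1 was 2.23 (SE 1.75).

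**Figure D5:**
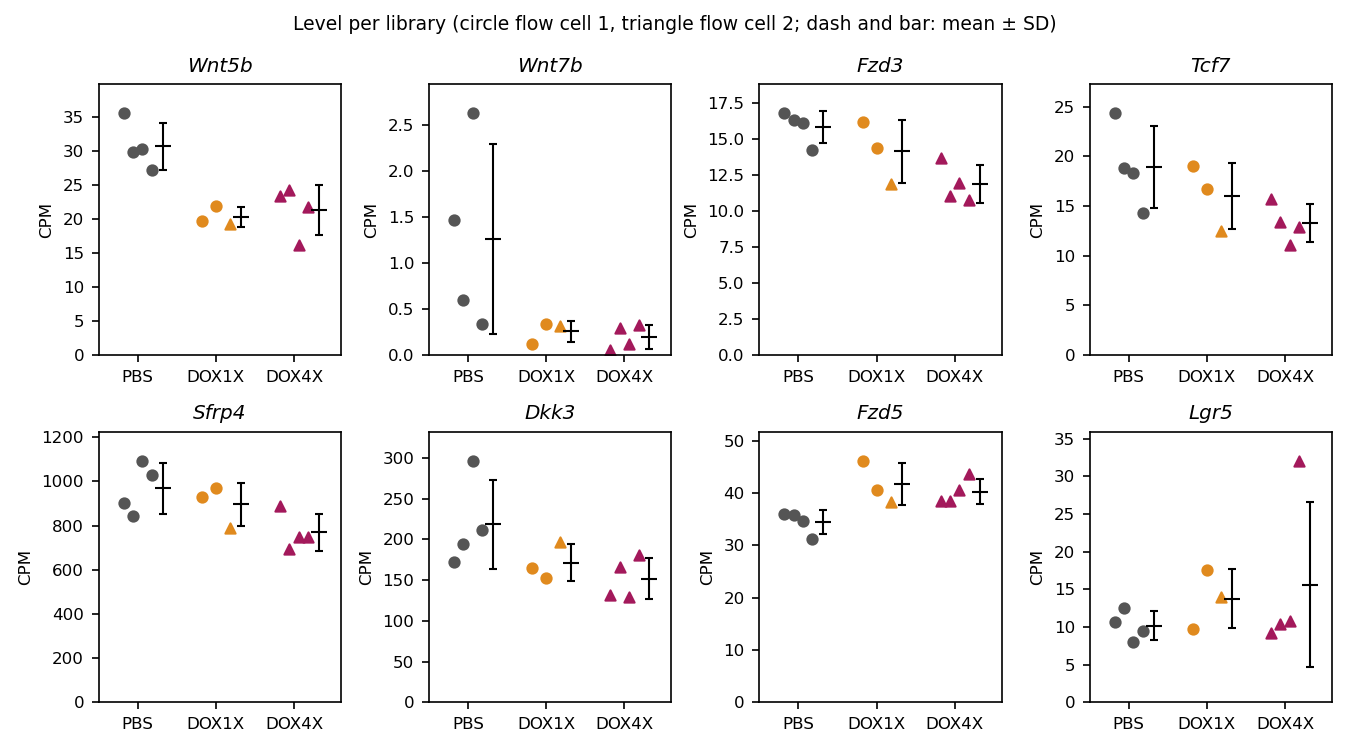
CPM of 8 members in every library, with the y axis from 0; circles are flow cell 1, triangles flow cell 2, and dashes with bars are group means ± SD. Wnt5b lies lower and Fzd5 higher in all treated libraries than in PBS, Fzd3 and Tcf7 in DOX1X 3 lie with DOX4X, and Lgr5 in DOX4X 4 stands alone at 32.1 CPM.

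The transcription factors and the target gene gave no common direction. Axin2, the most used readout of beta-catenin activity, measured 1.14, 0.567, 0.777 and 1.10 CPM in PBS, 1.27, 1.00 and 1.47 in DOX1X, and 1.21, 0.849, 0.692 and 0.872 in DOX4X. The groups overlapped, with a log2 fold change of 0.01 (SE 0.300) in DOX4X and 0.47 (SE 0.318) in DOX1X. The Axin2 difference in DOX4X was -0.36 (SE 0.592) with the flow cell as a term. Tcf7 measured 24.3, 18.8, 18.3 and 14.3 CPM in PBS, 19, 16.7 and 12.5 in DOX1X, and 15.7, 13.4, 11 and 12.9 in DOX4X, overlapping through PBS 4. Its log2 fold change in DOX4X was -0.51 (SE 0.179, edgeR adjusted p = 0.246) and 0.0050 (SE 0.325) with the flow cell as a term, so that schedule and flow cell cannot be told apart here either.

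Lef1 measured 4.85, 2.64, 4.60 and 3.30 CPM in PBS, 7.32, 7.28 and 3.68 in DOX1X, and 3.36, 6.99, 4.39 and 3.65 in DOX4X. It was high in DOX1X 1, DOX1X 2 and DOX4X 2 and otherwise within the PBS range, with a log2 fold change of 0.66 (SE 0.329) in DOX1X and 0.26 (SE 0.308) in DOX4X. Lef1 and Tcf7 are also lymphocyte genes, and markers of blood cells moved with treatment. The summed level of 13 B lineage genes was 45.7 to 107 CPM in PBS, 88.9 to 137 in DOX1X and 98.7 to 279 in DOX4X. For 18 T and natural killer cell genes it was 13.5 to 28.7, 21.7 to 44.3 and 22.7 to 57.7 CPM. No gene of either list was at 0 throughout a group. The T and natural killer sum was 44.3 CPM in DOX1X 1, 35.1 in DOX1X 2 and 57.7 in DOX4X 2, where Lef1 was high. In DOX4X 1, where Lef1 was 3.36 CPM, that sum was 47.7 CPM. With a blood-cell marker score as a term, the Lef1 difference was 0.17 in DOX1X and -0.19 in DOX4X, and the Tcf7 difference in DOX4X was -0.80. A flow cell term instead gave Lef1 differences of 0.92 (SE 0.323) in DOX1X and 1.24 (SE 0.560) in DOX4X. The part of blood-cell RNA in the Lef1 and Tcf7 differences was not tested.

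Most markers of the osteoblast lineage, in which Wnt signalling acts, were lower in sign in DOX4X as well. The sum of 18 osteoblast genes was 17957 to 31844 CPM in PBS, 17482 to 23556 in DOX1X and 13252 to 17420 in DOX4X. Of these genes, 17 of 18 were lower in sign in DOX4X than in PBS, against 47.8% of all genes. None was at 0 throughout a group. PBS 4 alone gave the lowest PBS sum, and the other PBS libraries lay at 29494 to 31844 CPM. DOX1X 3, on the flow cell of the DOX4X libraries, had a sum of 17482 CPM, while DOX1X 1 and DOX1X 2 had 23556 and 23379 CPM. As a mean of log2 CPM over these genes, with 2 added to each CPM, PBS 4 was at 7.16. The DOX4X libraries were then above it, at 7.24 to 7.51, and the other PBS libraries at 7.95 to 8.11. The part of a changed cell make-up in the lower Wnt5b, Dkk3, Sfrp4 and Frzb values was not tested. The summed level of 18 marrow stromal genes overlapped between the groups, at 74248 to 85152 CPM in PBS, 68349 to 86573 in DOX1X and 69382 to 81858 in DOX4X.

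Other genes of the pathway were read from 4 lists, and none of their genes passed the test in edgeR in any comparison. Of 23 tested genes for Wnt secretion, further co-receptors and pathway brakes, 19 were lower in sign in DOX4X than in PBS, against 47.8% of all genes. Their median log2 fold change over the 23 genes was -0.21, against 0.01 over all genes. Wls, which carries Wnt proteins to the cell surface, measured 519, 473, 509 and 510.5 CPM in PBS and 399, 399.8, 445 and 453 in DOX4X, without overlap (log2 fold change -0.24, SE 0.0720, edgeR adjusted p = 0.186). Lrp4, a receptor that presents sclerostin, measured 33.6 to 54.4 CPM in PBS and 22.1 to 27.8 in DOX4X (-0.69, SE 0.214, edgeR adjusted p = 0.205). The glypican Gpc4 and the Wnt7 co-receptor Reck differed by -0.31 and -0.29 with overlap. In DOX1X, 14 of the 23 were lower, against 48.8% of all genes, with a median of -0.07.

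Of 34 genes of intracellular beta-catenin signalling, 26 were lower in sign in DOX4X, against 47.8% of all genes. The median log2 fold change of the list was -0.05, against 0.01 over all genes. Ctnnb1, which encodes beta-catenin, measured 400.4, 364, 393 and 305 CPM in PBS, 361, 315 and 283 in DOX1X, and 285, 281, 265 and 272 in DOX4X. Its DOX4X libraries were all below PBS, a log2 difference of -0.41 (SE 0.0989, edgeR adjusted p = 0.132), and DOX1X 3 lay among them. Apc, a scaffold of the destruction complex, was also lower without overlap, at 46.1 to 54.0 CPM in PBS and 36.9 to 42.0 in DOX4X (-0.35, SE 0.0919, edgeR adjusted p = 0.147). The co-repressor Tle1 differed by -0.30 without overlap, and Ccdc88c, a regulator of Dishevelled, by 0.83 with overlap.

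Of 21 genes of the planar polarity and calcium branch, 13 were lower in sign in DOX4X, with a median log2 fold change of -0.04. The small GTPase gene Rhoa measured 425 to 469 CPM in PBS and 351 to 381 in DOX4X (-0.24, SE 0.0733, edgeR adjusted p = 0.190). Of 23 tested target genes known from stroma, 16 were lower in sign in DOX4X (median -0.04) and 11 in DOX1X (median 0.01). Over all genes, 47.8% were lower in sign in DOX4X and 48.8% in DOX1X, with a median of 0.01 in both. Runx2, the master regulator of osteoblasts, measured 203, 189, 206 and 187 CPM in PBS, 202, 172 and 192 in DOX1X, and 168, 156, 157 and 172 in DOX4X, below PBS without overlap (-0.26, SE 0.0713, edgeR adjusted p = 0.157). The matricellular genes Ccn4 and Ccn5 differed by -0.56 and -0.79 and Id2 by 0.41, all with overlap. These DOX4X differences were measured across flow cells.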

How the data were processed

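Sorted marrow stromal cells were profiled by poly(A) RNA-seq; the library kit (SMART-Seq v4 Plus) keeps no strand information. The authors deposited whole-number counts per gene, not normalized. The submitters' processing notes name STAR 2.7.9a, featureCounts 2.0.1, Trim Galore 0.6.6 and the build GRCm39; the annotation is not given in the sources used here. Groups follow the treatment labels. The members and gene lists were chosen with earlier results of these data known.

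Counts were fitted with edgeR 4.0.16 in R 4.3.3 (filterByExpr, TMM scaling, quasi-likelihood test, group means over 11 libraries, Benjamini-Hochberg adjustment over 17838 genes, threshold 0.05). An SE is the log2 fold change divided by the root of F. CPM are TMM-scaled, and per-kilobase levels use GENCODE M21 exon lengths, another build than the files. Genes described in full are the 5 of smallest p in each comparison, the 10 most abundant per kilobase in PBS and a list of well-known members; of each pathway list, up to 4 genes of smallest p. Fzd2, Wnt11 and PBS-only values of a few other members were added after their values were seen. Deviations from the group means correlated at 0.142 to 0.473 in the 3 same-numbered pairs of DOX1X and DOX4X, though DOX1X 2 correlated more with DOX4X 1 (0.419). Differently numbered pairs of libraries from different groups spanned -0.574 to 0.536. The labels do not say that a number marks a shared litter or day. Alternatives included DESeq2 1.42.0, limma 3.58.1 voom, other scalings and filters, a flow cell term, a blood-cell marker score, a replicate block and leaving out each library. The scripts were tested on simulated data.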

Additional observations from a re-analysis of the deposited data

Results flagged for a closer look

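In groups of 4 libraries, a library was singled out when its gap to the nearest other library made up most of the group's range (Dixon's criterion at the 95% level), which chance does in about 1 of 20 groups. Of 63 combinations of member and group examined, 3 were singled out, all in DOX4X. Frzb was highest in DOX4X 4 at 8.09 CPM, against 4.24 to 4.79 in the others. Lgr5 was highest in the same library at 32.1 CPM, against 9.22 to 10.8. Fzd4 was lowest in DOX4X 1 at 125 CPM, against 148 to 152.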

How the results depend on the processing

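No member was called in any edgeR or limma-voom setting, including each of the 11 fits without a library. DESeq2 called 2 members for DOX4X and 1 for DOX1X against PBS. The 26 genes called for DOX4X against PBS became 599 with DESeq2, 56 with limma-voom, 64 at a threshold of 0.10, 6 with the flow cell as a term, 1 when the compared groups were fitted alone and 0 with the blood-cell marker score, and 0 to 80 when a library was left out, the highest without PBS 4, the library whose title begins with DOX. For DOX1X against PBS the count of 1 became 41 with DESeq2, 5 within flow cell 1 and 1 to 2 without a library. For DOX4X against DOX1X it became 28 with DESeq2 and 1 to 2 without a library. With the replicate number as a block, 10, 6 and 2 genes were called in the 3 comparisons. The block called no member. Over 9615 genes, differently numbered pairs from different groups correlated at -0.574 to 0.536, and 10 same-numbered pairs at -0.146 to 0.473. All 3 same-numbered pairs of DOX1X with DOX4X exceeded 0.1, and of the same-numbered pairs with PBS 2 did, so the numbers did not pair PBS with either group. Of the 17 differences at an unadjusted p under 0.05 among the members that the naming rule chose, 16 kept their sign in every setting, and Tcf7 for DOX4X reversed to 0.0050 with the flow cell as a term. Of the other 70, 35 changed sign in some setting. Because the 17 were picked by their p in these same libraries, their kept signs are not a separate check. A kept sign is also not a kept size. With the flow cell as a term, the DOX4X difference went from -0.42 to -0.05 for Fzd3 and from -0.53 to -0.83 for Dkk3. Of the 11 untested members, none exceeded 21 counts in a library, which limits any comparison of them.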
